A study of Drosophila melanogaster with 2 samples.

Results

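The 300 strongest binding regions of a tagged Taiman protein in whole fly larvae are described here. They were chosen by signal, as the 300 peaks of highest pooled signal on the main chromosome arms, of 2567 such peaks in the authors' list that passed the irreproducible discovery rate (IDR) step. The 24 peaks of that list that map to the mitochondrial genome were left out. Because signal chose these regions, their height, their width and their agreement between replicates are given as descriptions. The tests compare features of the genome annotation, which the choice did not use, with those of the 2267 other IDR peaks on the arms.

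Chromatin immunoprecipitation and sequencing (ChIP-seq) with an antibody to GFP was applied to sonicated chromatin of whole larvae of the third instar, at the wandering stage, males and females pooled. All larvae came from 1 transgenic Drosophila melanogaster line, tai-GFP, that stably expresses tai with eGFP at its C terminus. The promoter that drives the fusion and the age of the larvae were not given in the sources used here. There was 1 group of 2 biological replicates, numbered 1 and 3, both called against the same control alignment, with no untagged or untreated group. Whole animals mix all larval tissues, so strong binding in a few cell types and weaker binding in many cannot be told apart. Read depth was unknown from the peak lists.

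Taiman is a large protein with bHLH and PAS domains, the fly member of the p160 family of steroid receptor coactivators. It binds the ecdysone receptor and helps it to activate genes when the molting hormone ecdysone rises, as it does in wandering larvae before they form a puparium. It also partners with the juvenile hormone receptors Met and Gce and with Yorkie, the effector of the Hippo growth pathway. As a coactivator it is thought to reach DNA largely through such partners, so a peak marks DNA recovered with the protein and not necessarily contact of Taiman itself.

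The sequence at the summits of 11 of the strongest regions shows the DNA that these values belong to. They are 4 of the strongest promoter regions and 7 of the strongest others. Windows that overlap an untranslated region or lie on an arm not printed were passed over. Each holds the authors' summit with 50 bases on either side, plus strand of the dm6 build, 5′ to 3′, read from RefSeq's copy of that assembly. Capitals mark letters that match 1 of 24 searched motifs on either strand.
ush intron, 1357 bp upstream of a cbt start site (rank 1, chr2L:480995-481095): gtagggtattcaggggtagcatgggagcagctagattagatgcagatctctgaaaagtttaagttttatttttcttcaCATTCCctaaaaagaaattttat
CG11050 intron (rank 2, chr2L:6612654-6612754): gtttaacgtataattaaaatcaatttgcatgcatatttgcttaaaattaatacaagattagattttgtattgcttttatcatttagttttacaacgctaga
CG32486 first intron (rank 4, chr3L:3060745-3060845): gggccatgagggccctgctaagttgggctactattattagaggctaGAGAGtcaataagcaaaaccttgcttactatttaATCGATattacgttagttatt
ph-p promoter (rank 5, chrX:2137270-2137370): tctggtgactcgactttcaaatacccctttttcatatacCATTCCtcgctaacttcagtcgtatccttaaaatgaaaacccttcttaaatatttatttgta
Atat and Shc promoter (rank 7, chr3L:9426794-9426894): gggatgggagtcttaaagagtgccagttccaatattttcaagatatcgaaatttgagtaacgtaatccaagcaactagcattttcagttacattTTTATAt
Lk6 first intron (rank 10, chr3R:11761028-11761128): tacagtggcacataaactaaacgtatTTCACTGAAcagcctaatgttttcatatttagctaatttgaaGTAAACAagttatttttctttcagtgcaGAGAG
lncRNA:CR44619 exon (rank 11, chrX:12752308-12752408): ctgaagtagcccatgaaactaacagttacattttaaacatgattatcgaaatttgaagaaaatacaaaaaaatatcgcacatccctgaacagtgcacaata
lncRNA:CR46035 exon within osa (rank 12, chr3R:17704355-17704455): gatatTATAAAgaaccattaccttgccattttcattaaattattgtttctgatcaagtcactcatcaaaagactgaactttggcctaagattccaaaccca
between CG31668 and COX7AL2 (rank 13, chr2L:2202369-2202469): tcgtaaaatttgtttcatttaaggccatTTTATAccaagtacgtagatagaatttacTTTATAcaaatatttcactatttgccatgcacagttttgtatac
larp promoter (rank 19, chr3R:28326540-28326640): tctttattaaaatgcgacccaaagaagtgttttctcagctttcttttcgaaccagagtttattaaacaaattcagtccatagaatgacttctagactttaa
CG5611 and Mtl promoter (rank 23, chr3R:27636163-27636263): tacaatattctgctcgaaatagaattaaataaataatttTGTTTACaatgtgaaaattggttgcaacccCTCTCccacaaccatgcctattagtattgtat

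Capitals in these windows are a match to GAGAG or its reverse CTCTC (the GAGA motif) in the CG32486, Lk6 and CG5611 windows. The CG32486 window also holds ATCGAT, the core of the DNA replication-related element. GGAATG, the motif of the TEAD factor Scalloped, occurs as its reverse CATTCC in the ush and ph-p windows. TTCNNNGAA (STAT) occurs in the Lk6 window, TGTTTAC or its reverse (forkhead) in the Lk6 and CG5611 windows, and TATAAA or its reverse (TATA box) in the Atat, osa and CG31668 windows. The CG11050, lncRNA:CR44619 and larp windows held none of the 24 motifs. None of the 11 windows contained AGGTCA, the nuclear receptor half-site. A match is a description of the letters and not evidence that the factor was there.

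The highest signal, 1109, lay in an intron of ush, which encodes U-shaped, a zinc finger cofactor of GATA factors. The nearest start site there is that of cbt (Cabut), a zinc finger transcription factor, 1357 bp away. This region ranked first in both replicates, with a signal of 634 in replicate 1 and 481 in replicate 3. An intron of CG11050 followed at 1023 and was the next in both replicates, at 611 and 416. The CG1888 promoter came after it at 819, with 435 and 407, and the first intron of CG32486 had 761, with 423 and 338. From there the heights fell to 505 at rank 29 and 183 at rank 300. The median of the 300 was 236, against 84.2 for the other IDR arm peaks, which ran from 65.2 to 182.

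**Figure D1:**
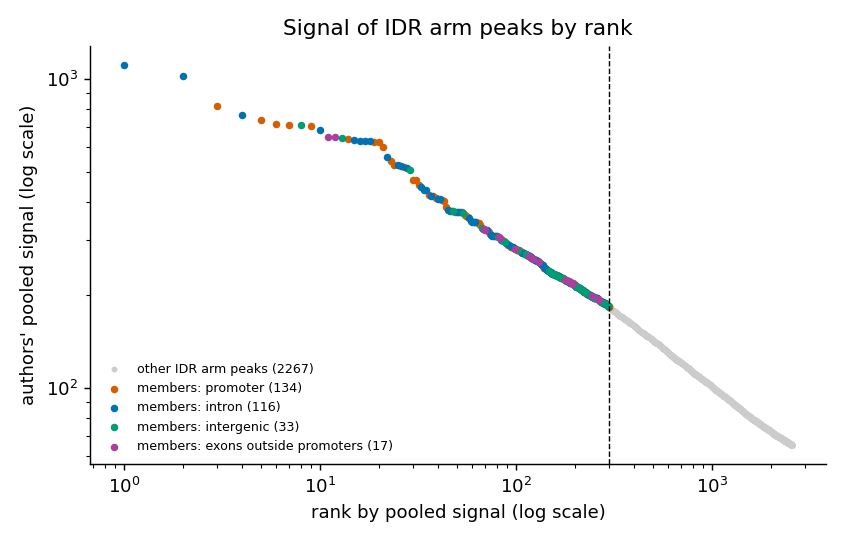
Pooled signal of the 2567 IDR arm peaks (vertical, log scale) against their rank (horizontal, log scale). The 300 strongest are coloured by the annotation of their summit and the dashed line marks the limit after rank 300; signal falls from 1109 to 183 with promoter and intron peaks mixed along the whole range.

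Regulators of chromatin and kinases stood among the next highest, mixed with regions of other kinds. An intergenic region 11925 bp from the nearest TSS, for example, had 706. The ph-p promoter, of a subunit of Polycomb repressive complex 1, had 736 (416 in replicate 1 and 314 in replicate 3). The promoter of gish, which encodes a casein kinase 1, had 713 (385 and 333). The shared promoter of Atat, an alpha-tubulin acetyltransferase, and Shc, a signaling adaptor, had 709 (351 and 351). The first intron of Lk6, the kinase of the translation factor eIF4E, had 683 (350 and 320). A summit within osa, a subunit of the Brahma remodeling complex, had 649 (383 and 294) and also lay in an exon of the long noncoding RNA CR46035. The ph-p, gish, Atat, Lk6 and osa regions all ranked between 4 and 23 in both replicates.

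Several of the top 40 regions lie at genes known as part of the hormone response. The promoter of Sox14, a transcription factor needed in metamorphosis, had 637, with 374 in replicate 1 and 252 in replicate 3. A first-intron region of Eip75B, the ecdysone-induced nuclear receptor E75, had 636, with 383 and 246. A first-intron region of Kr-h1, the zinc finger effector of juvenile hormone, had 559, with 332 and 233. The promoter of Chro (Chromator), a chromodomain protein of polytene interbands, had 600 and is shared with Ssl1, a TFIIH subunit. Others among the 40 were the promoters of larp, an RNA-binding protein of the La-related family, at 625, of fkh, the forkhead factor of salivary glands, at 471, and of the glycolytic gene Gapdh2 at 453. A first intron of crb, the apical polarity gene Crumbs, had 408.

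Promoters were the most frequent class under the rule used here, though not under every rule tried. Of the 300 summits, 134 (44.7%, 95% interval 39 to 50.5) lay within 500 bp of the start site (TSS) of a protein-coding gene, against 707 of 2267 other IDR arm peaks (31.2%, 29.3 to 33.1). The difference of 13.5 percentage points passed a two-sided Fisher's exact test (odds ratio 1.78, adjusted p = 3.96e-05 over 7 classes). Introns held 116 summits (38.7% against 45.7%), which did not pass (exact adjusted p = 0.0519). Intergenic DNA held 33, or 11% against 18% (exact adjusted p = 0.00674). Exons outside promoters held the remaining 17, of which 11 were exons of noncoding genes, 3 were 3′ UTRs, 2 were coding and 1 was a 5′ UTR. None of these classes passed. Neighbouring peaks are not independent, and after every peak within 1000 bp of a stronger one was left out the promoter difference was 14.3 points.

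The promoter share did not fall with rank inside the 300. It was 44% over ranks 1 to 50, 46% over ranks 51 to 100, 43% over the next 100 and 46% over the last 100. Outside, it was 37% over ranks 301 to 600, 33% over ranks 1001 to 1500 and 25% over ranks 2001 to 2567. Each replicate's own list, ranked by its own signal, gave the same direction. In replicate 1 the top 300 held 49.3% promoter summits against 36.8% of the next 2267 (adjusted p = 0.000265, Fisher's exact test). In replicate 3 the shares were 42% and 30.7% (exact adjusted p = 0.000889). The intergenic difference passed in replicate 1 (9.33% against 16.9%, exact adjusted p = 0.00195) and did not in replicate 3 (13.3% against 15.6%, exact adjusted p = 0.502). The 2 lists share the control alignment.

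**Figure D2:**
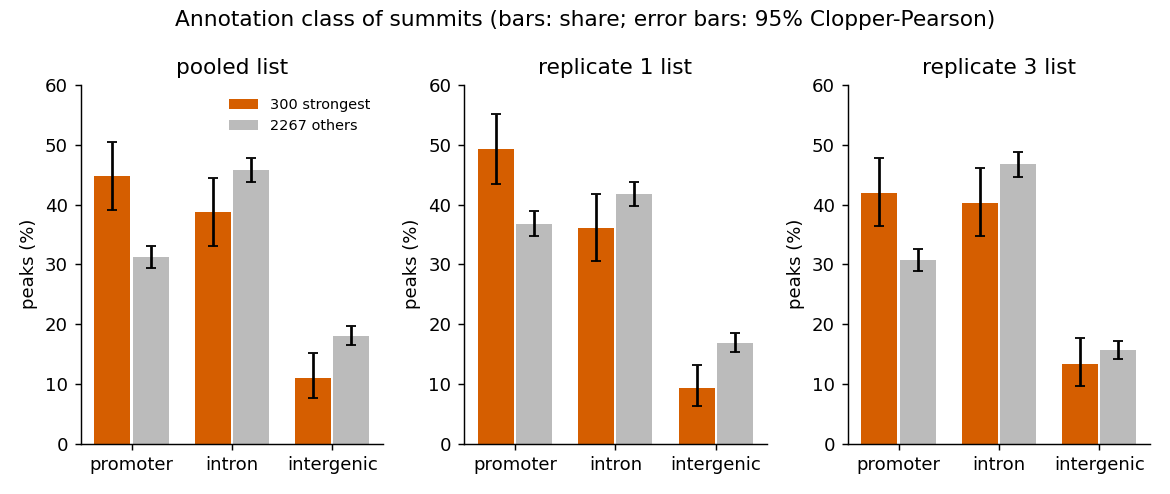
Share of summits (vertical, percent) at promoters, in introns and in intergenic DNA, for the 300 strongest regions and the 2267 others of the pooled IDR list, and for the same ranks in each replicate's own list; error bars are 95% Clopper-Pearson intervals, for counting error only. The promoter bar of the strongest regions is the higher of its pair in all 3 panels (44.7% against 31.2%, 49.3% against 36.8%, 42% against 30.7%).

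At promoters the strong summits sat just upstream of the TSS. Of the 134, 123 (91.8%, 85.8 to 95.8) were upstream and 11 downstream, with a median of 149 bp upstream. In 98 of them (73.1%) the summit was 1 to 250 bp upstream. Among the 707 other promoter peaks 76.9% (73.7 to 80) were upstream, 53.5% within that band, with a median of 108 bp upstream. The share upstream was 89.2% against 79.6% in replicate 1 and 92.1% against 69.5% in replicate 3. Summit position was not among the features tested, so these are descriptions.

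**Figure D3:**
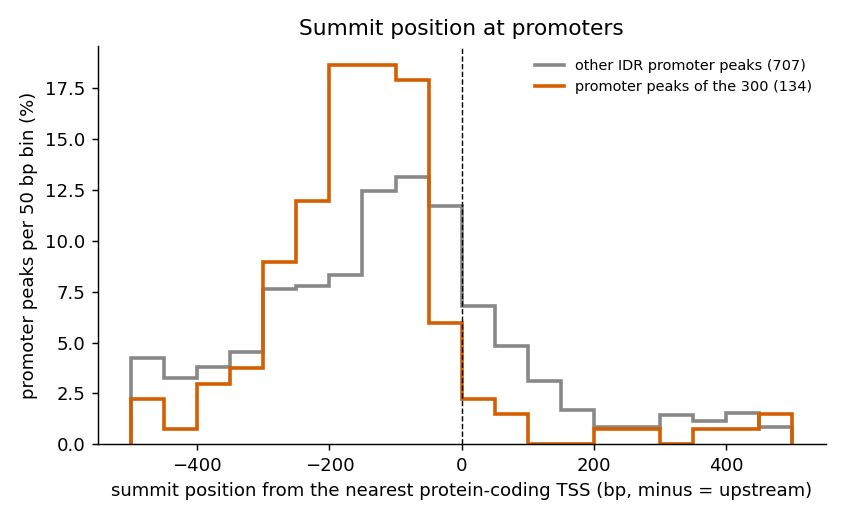
Position of promoter summits from the nearest protein-coding TSS (horizontal, bp, negative upstream) as percent of each set per 50 bp bin (vertical), for the 134 promoter peaks among the 300 and the 707 other IDR promoter peaks. The 134 gather upstream of the TSS (91.8% against 76.9%), most of them within 250 bp (73.1% against 53.5%).

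Divergent promoters, where genes on opposite strands start near each other and facing away, were frequent. A pair counted if TSSs of different protein-coding genes lay within 1000 bp of the summit, the minus-strand one at the lower or same coordinate. The summit did not have to lie between them. Among the 134 promoter peaks 48 (35.8%, 27.7 to 44.6) lay at such a pair, against 157 of 707 (22.2%), a difference of 13.6 points (adjusted p = 0.00272 over 4 position features, Fisher's exact test). Replicate 1 gave 46.6% against 29.1% (exact adjusted p = 0.0002) and replicate 3 gave 38.1% against 18.8% (exact adjusted p = 2.34e-05). Besides Atat with Shc and Chro with Ssl1, the strongest pairs were CG8360 with CG8372 at 703, mRpL41 with CG8079 at 624, CG5611 with Mtl at 541 and CG11309 with CG7632 at 410. mRpL41 encodes a mitochondrial ribosomal protein and Mtl a small GTPase of the Rac family. For such regions the gene with the nearest TSS is a choice between neighbours: 52 of the 300 had TSSs of more than 1 gene within 1000 bp.

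Away from promoters the first intron was the usual place. A summit counted if it lay in the first intron of any annotated transcript of any protein-coding gene there, in both sets. Of 112 summits in introns of protein-coding genes 91 (81.2%, 72.8 to 88) were in a first intron, against 687 of 1015 (67.7%), a difference that passed (exact adjusted p = 0.0046) in the pooled list. Replicate 1 gave 83.5% against 68.8% (exact adjusted p = 0.00264). Replicate 3 gave 74.6% against 66.3%, which did not pass (exact adjusted p = 0.105), nor did the pooled difference with 400 regions (6.14 points, exact adjusted p = 0.177). The introns were long, with a median of 13430 bp, near the 16643 bp of the other intronic peaks. The other 4 intronic summits lay in noncoding genes. Beside ush, CG32486, Lk6, Eip75B and Kr-h1, strong first-intron regions were in CG9663 at 630, LPCAT, a phospholipid acyltransferase, at 628, CG32772 at 627 and norpA, the phospholipase C of phototransduction, at 525. Those in CG11050 and in Trl, which encodes the GAGA factor (377), were in later introns.

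Few strong regions were remote from a protein-coding TSS. The median distance to a protein-coding TSS was 722 bp, against 1606 bp, and 22 summits (7.33%, 4.65 to 10.9) were over 10000 bp away, against 317 (14%), which passed (exact adjusted p = 0.00272). Replicate 1 gave 7% against 13% (exact adjusted p = 0.00264), and replicate 3 gave 9.33% against 13.5%, which did not pass (exact adjusted p = 0.089). The farthest were an intron of CG42238 at 40537 bp (signal 345), a pair of regions in tai at 35146 and 34941 bp (208 and 346), an intergenic region at 31878 bp from CG43245 (234) and an intron of fz, the Wingless receptor Frizzled, at 25253 bp from the start of CG13482 (273). Most of these farthest regions are far from a TSS but still inside a gene. In all, 178 summits (59.3% against 63.7%) were inside a protein-coding gene, and for 29 of them the nearest TSS belonged to a different gene. Noncoding genes held 28 of the 300 summits and 108 of the 2267 others. Annotated transposons held 0 of the 300 and 7 of the 2267 others, too few to tell the sets apart. Neither feature was tested. A tRNA gene was within 500 bp of 1 summit (0.333% against 0.706%, exact adjusted p = 0.711).

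Peak width differed between the 300 and the rest, as a description only, since the caller sets it from the reads that set the signal. The most frequent width in the pooled list was 404 bp, held by 94.3% of the other IDR arm peaks. Only 58 of the 300 (19.3%) had it, 237 (79%) were narrower and 5 were wider. Their median was 240 bp, with quartiles of 187 and 364 bp. Width did not run one way with rank. The median was 324 bp over ranks 1 to 50 and 241 bp over ranks 51 to 100. It was 208 bp over the next 100, 237 bp over the last 100 of the 300 and 404 bp over ranks 301 to 600. Narrow peaks went on past the limit, such as 134 bp at rank 303, while ranks 301 and 302 had 404 bp. The change was thus not a sharp break at rank 300. The 5 widest were 761 bp in an intron of vri, which encodes a bZIP factor of the clock and of growth, 499 bp near CG31668, 468 bp at the promoter of papi, 418 bp at mRpL41 and 408 bp in Eip75B. In replicate 1's own list the top 300 had a median of 254 bp where 424 bp was the most frequent width, and 76.7% were narrower. In replicate 3's own list the median was 396 bp, its most frequent width, and 35.7% were narrower, against 0.221% of the next regions.

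**Figure D4:**
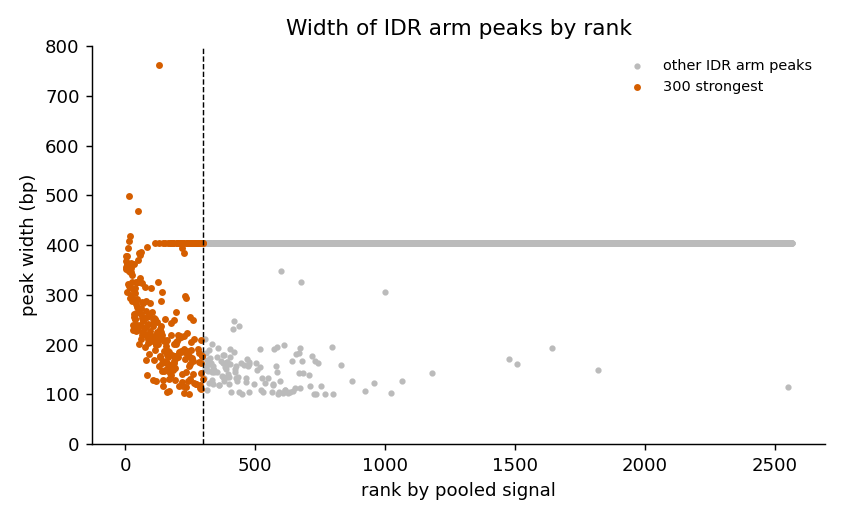
Width in bp (vertical) of the 2567 IDR arm peaks against rank by pooled signal (horizontal), the 300 strongest coloured, with the limit after rank 300 dashed. Outside the limit 94.3% lie on the line at 404 bp; inside it 237 of 300 lie below and 5 above, up to 761 bp in vri.

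The regions were spread over the large arms, with 72 on 2L, 65 on 3R, 63 on 3L, 51 on X and 49 on 2R. No arm's share passed the test (smallest exact adjusted p = 0.106 over 6 arms). That value was for chromosome 4, which held 0 of the 300, allowing a share of up to 1.22% (95% Clopper-Pearson bound), and 37 of the others (1.63%). X held 17% against 14.5% (exact adjusted p = 0.39). Some of the 300 lay close together. With neighbours joined when summits lay within 10 kb, they formed 267 loci, of which 26 held more than 1 and together 59 regions. The other peaks were not joined in this way. IDR arm summits within 10 kb of a summit had a median of 1 and quartiles of 0 and 3 in both sets. Having close neighbours was thus not particular to the 300.

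The ush locus held 4 within 5770 bp, at 1109, 438, 371 and 230, the last within 500 bp of a cbt TSS. The first and the one at 371 overlap and share a single region in each replicate, so they are not separate there. On X 4 lay within 3999 bp around the noncoding RNAs CR44619 and Vinr, at 650, 305, 221 and 213, with CG4004 and Paics as the nearest protein-coding genes. On 2L 4 lay within 6302 bp near CG31668 and COX7AL2. Those at 642, 373 and 218 were intergenic, and the one at 289 was in the first intron of COX7AL2. CG43389 held 3 within 1378 bp, at its promoter (356), its coding sequence (268) and its 3′ UTR (255). The latter pair also shares 1 region in replicate 3. In all, 4 pairs of the 300 overlapped.

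By gene, 20 protein-coding genes had 2 or more of the 300 in the body or within 1000 bp of a TSS. Those with 4 were ush, tai and sbb. sbb encodes Brakeless, a transcriptional corepressor, and its regions were at 234, 220, 187 and 187. tai, the tagged gene itself, had regions at 346, 268, 222 and 208, the first and last overlapping in 1 region per replicate. The region at 222 sits at a promoter that tai shares with CG9586. Of 31 IDR peaks at tai 4 were among the 300, and leaving out all peaks in or near tai gave a promoter difference of 13.4 points. The part that the transgene's own DNA plays in signal at tai was not tested.

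Over the 300, a TSS within 1000 bp belonged to 217 protein-coding genes, 1.56% of 13945. With gene bodies added there were 312 genes, 2.24%. IDR arm peaks of any height reached 1424 genes by the same rule, 10.2%. Genes with a strong region had a median length of 10356 bp, near the 9154 bp of genes with any IDR summit and above the 2166 bp of all protein-coding genes. Counted over summits inside genes, the host genes of the 300 had a median of 20123 bp, against 29402 bp for the other IDR arm peaks. A long gene has more room for a summit, so each count of a list is read beside the 2.24% of all genes and the list's median gene length, and none is tested. Many lists are so short that 0 or 1 gene is near what 2.24% gives. The 45 lists were chosen with earlier results of these data known. The gene with the nearest TSS was one of 276, of which 80 have no name beyond a CG number. A gene of some list was at 82 of the 300 regions. No such count is given here for the other IDR arm peaks, so it cannot be read as high or low.

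The ecdysone response list had 11 of 30 genes with a strong region (36.7% beside 2.24%, median gene length 21696 bp), and 20 with an IDR peak of any height. After Sox14, Eip75B and Kr-h1 came Eip78C, an ecdysone-induced nuclear receptor, at 353, and tai. The others were vri (257), the nuclear receptor Hr4 (219), br (214), EcR (197), Ldh (197) and the transporter gene E23 (196). br encodes Broad, a zinc finger determinant of metamorphosis, and its region also lay in the first intron of Mur2B, a gene on the opposite strand whose body spans br. EcR encodes the receptor that Taiman coactivates. Its region had 85.7 in replicate 1, rank 648, and 121 in replicate 3, rank 95. The Ldh promoter, of lactate dehydrogenase, had 148 and 61.4, the opposite order. Among 21 nuclear receptors 4 had a strong region (19%, 22386 bp), all of them on the ecdysone list as well. Of 13 genes of ecdysteroid synthesis and uptake 0 had one (7405 bp), and 3 had an IDR peak.

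Chromatin proteins followed. Of 25 genes of chromatin architecture and coregulators 8 (32%, median length 5283 bp) had a strong region: Chro, the HMG-box genes HmgD and HmgZ, Mi-2, BEAF-32, Smr, gro and Su(var)205. HmgD and HmgZ share a pair of overlapping regions, the stronger at 446 (268 in replicate 1 and 181 in replicate 3). Mi-2, the NuRD remodeler, had 270, by a summit in its gene body that also lay in an intron of Su(Tpl). The nearest TSS there, 6114 bp away, was that of Su(Tpl). BEAF-32, an insulator protein, had 218. Smr, the nuclear receptor corepressor, had 213. Of 28 Polycomb and trithorax group genes 4 had one (14.3%, 8260 bp), which were ph-p, osa, Trl and trx (230), the histone methyltransferase Trithorax.

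Genes of growth control had members in several pathways. The growth and stress transcription factor list had 5 of 18 (27.8% beside 2.24%, median gene length 30453 bp), and 16 of its genes had an IDR peak of any height. The 5 were REPTOR (280), a factor held back by TORC1, bun (233), cbt (230), Atf3 (210) and heca (207). The EGF receptor and MAPK list had 5 of 22 (22.7%, 15038 bp): the kinase Raf (343), Ras85D (240), the ligand gene Krn (129 in replicate 1 and 76.7 in replicate 3), the repressor gene cic (135 and 73.5) and aop (190), which encodes the ETS repressor Yan. The Ras85D region is shared with Rlb1 and overlapped no region in replicate 3. The insulin and TOR list had 4 of 27 (14.8%, 7354 bp), Lk6, Pi3K21B (421), the regulatory subunit of the class I phosphoinositide kinase, REPTOR and the insulin receptor InR (184). The Hippo list had 3 of 25 (12%, 12625 bp): crb, Diap1 (202), the inhibitor of apoptosis that Yorkie activates, and ex (200), an upstream component of the pathway. In the Wingless list 3 of 22 did (13.6%, 16490 bp), gish, fz and the kinase gene sgg (227).

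Other signaling lists had 0 to 2 genes each. Of the Notch list 2 of 20 had a strong region (10%, 4919 bp), neur (193) and numb (189). Of the Dpp and activin list 2 of 17 did (11.8%, 7466 bp), sbb and shn (222), and of the JAK-STAT list 2 of 12 (16.7%, 7266 bp), Ptp61F (237) and Socs36E (198). Of Toll and IMD genes 1 of 16 did (6.25%, 4442 bp), cact (198). The JNK and AP-1 list had 0 of 14 (11048 bp) and the cell cycle list 0 of 16 (4182 bp), and 5 and 8 of their genes had an IDR peak. The Hox list had 0 of 8 (30563 bp). A region at 367 lay 2636 bp upstream of kay, a Fos gene of the AP-1 list, outside the distance that counts.

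Lists of terminal functions are given beside the same 2.24%, each with its median gene length. The cytosolic ribosomal proteins had 0 of 92 (1315 bp), with 10 reached by an IDR peak of any height. The mitochondrial ones had 3 of 73 (4.11%, 909 bp): mRpL41, mRpL34 (268) and mRpL20 (195). The odorant receptors had 0 of 59 (1462 bp), the gustatory 0 of 60 (1397 bp) and the ionotropic 0 of 60 (1908 bp). Metabolic lists had 2 of 14 for glycolysis (14.3%, 3864 bp), Gapdh2 and Ldh, 1 of 26 for the respiratory chain (3.85%, 1616 bp), Cyt-c-p at 249, and 1 of 18 for lipids (5.56%, 8234 bp), LPCAT. The heat shock list had 1 of 15 (6.67%, 2347 bp), Hsp27 at 310.

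Of the tissue marker lists, fat body had 0 of 13 (2909 bp), midgut 0 of 13 (1668 bp) and trachea 0 of 9 (16618 bp). Muscle had 1 of 17 (5.88%, 12453 bp), Mef2 at 194, and neurons and glia 1 of 15 (6.67%, 13992 bp), elav at 243. Hemocytes had 1 of 14 (7.14%, 6221 bp), ush, and cuticle and epidermis 1 of 19 (5.26%, 3300 bp), grh at 243. The salivary gland list had 1 of 14 (7.14%, 1067 bp), fkh. Each of these lists had 1 gene or none.

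The remaining lists each had 1 to 3 genes. Juvenile hormone had 2 of 12 (16.7%, 2730 bp), Kr-h1 and tai, and bHLH-PAS genes 1 of 11 (9.09%, 20370 bp), tai. The circadian loop had 1 of 8 (12.5%, 12433 bp), vri, and GATA and FOG factors 1 of 6 (16.7%, 16826 bp), ush. Forkhead factors had 2 of 16 (12.5%, 3187 bp), fkh and CHES-1-like at 195. Appendage patterning had 1 of 25 (4%, 15575 bp), dac at 196, and neural fate factors 3 of 23 (13%, 17167 bp), Syp at 258, grh and brat at 193. Cell death and autophagy had 2 of 16 (12.5%, 2918 bp), hid at 204 and Diap1. Actin, adhesion and polarity had 2 of 37 (5.41%, 29517 bp), crb and mys at 212, although 22 had an IDR peak of any height. The tubulin cytoskeleton had 1 of 18 (5.56%, 11794 bp), Atat, and translation initiation 1 of 21 (4.76%, 4967 bp), larp. As background, hid triggers cell death in larval tissues at metamorphosis and mys encodes a beta integrin.

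Most of the 300 were strong in each replicate. Of them, 236 overlapped a region in the top 300 of replicate 1, 226 one in the top 300 of replicate 3, and 171 both. The same counts for the 2267 other IDR arm peaks were 28, 83 and 11. Within the top 2567 of both were 285 of the 300 and 1008 of the others. Each of the 4 overlapping pairs among the 300 shares 1 region per replicate, which counts for both of the pair. These counts are descriptions, since the pooled signal comes from the same reads. By class, 78.4% of promoter regions and 80.2% of intronic regions were in replicate 1's top 300, and 71.6% and 79.3% in replicate 3's.

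**Figure D5:**
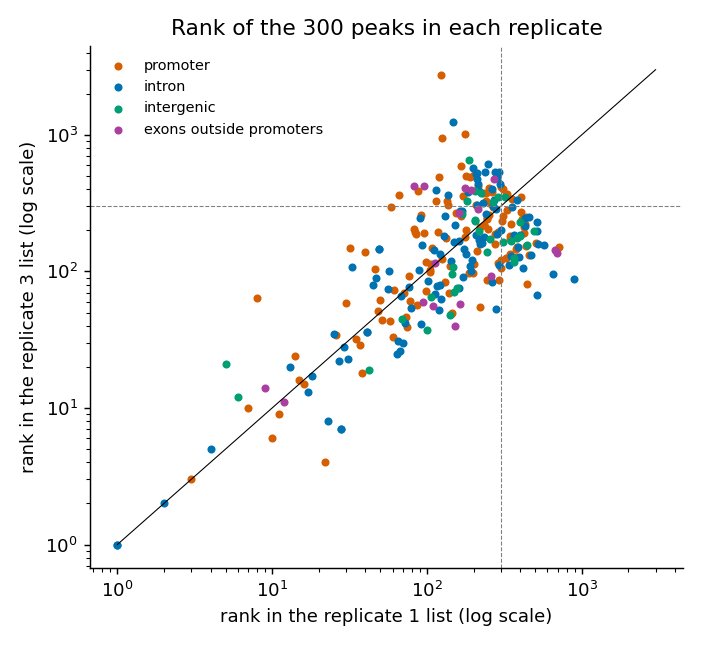
Rank of the 300 regions in the replicate 1 list (horizontal, log scale) and the replicate 3 list (vertical, log scale), coloured by annotation class, with dashed lines at rank 300 and the line of equal ranks; the 14 regions without an overlap in 1 replicate are not drawn. Of the 300, 171 lie below and left of the dashed lines, in the top 300 of both.

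In 14 regions 1 replicate's list had no overlap at all. The 12 without one in replicate 3 included 10 promoters, and the strongest were mRpL41 (624 pooled, 358 in replicate 1), Pi3K21B (421 and 241), CG32176 (343 and 226), CG7841 (167 in replicate 1) and CG9837 (274 and 178). The regions without one in replicate 1 were in introns of Pen, an importin alpha (267 pooled, 112 in replicate 3), and CG17121 (110 in replicate 3). Of the 2267 other IDR arm peaks, 88 had no overlap in replicate 3 and 9 had none in replicate 1. A missing overlap was thus not particular to the strong regions. Leaving out every IDR peak without an overlap in a replicate, strong or not, gave a promoter difference of 12.8 points.

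At the limit the values were close. The last 3 inside had 183 each: the promoter shared by Ssb-c31a and Su(var)205, the gene of heterochromatin protein 1a, the ferritin gene pair Fer2LCH and Fer1HCH, and the pair CG3919 and stwl. The first outside were the promoter of tai and CG9586 again (182), an intron of Hipk (181) and the promoter of Lap1 and Agps (181). On the dm3 build the authors' IDR list had 2553 arm peaks, and 300 of them reached the same signal of 183, with a median width of 241 bp over its strongest 300.

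Of the 24 motifs searched within 100 bp of each summit, on both strands, GAGAG differed by the most percentage points from the other IDR arm peaks. It was in 93 of 300 windows (31%, 25.8 to 36.6), against 23.5% (21.7 to 25.3) of the other IDR arm peaks and 17.7% of 27407 lower-ranked regions of the pooled list. Outside promoters the shares were 38% (30.5 to 45.8) and 22.9% (20.9 to 25.1), and at promoters 22.4% and 24.6%. TATAAA was in 28.3% against 35.1% and a run of 8 adenines in 12% against 17.5%. The E-box CACGTG was in 3.67% (1.84 to 6.47) against 1.41% (0.967 to 1.99). AGGTCA, the nuclear receptor half-site, was in 4%, beside 3.53% and 4.14% of lower-ranked regions. CACGCG, the juvenile hormone receptor site, was in 2.33% against 3.93%. The element TATCGATA was in 2.33% against 2.47%, only at promoters among the 300. The promoter motif GGTCACACT was in 0 of 300 windows, which allows up to 1.22%, against 0.97%. Median GC content was 36.3%, 34.8% and 33.8% in the 3 sets, and its part in these shares was not tested. No motif was tested.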

How the data were processed

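The peak lists are on dm6 and dm3. Regions of each replicate and of the pooled replicates were called with 1 common control alignment, and those lists fed the IDR step, per the deposited text records. Aligner and caller: not given in the sources used here. Signal per peak is the authors' own value relative to the control, in the deposited lists, on an unstated scale. Other columns of these lists, the reads and the control were not analysed here.

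The 300 arm peaks of highest signal were taken from the dm6 IDR list, ties in order of arm and start. Summits were classed by the Ensembl release 115 annotation of BDGP6.54, promoter first, and sequence came from RefSeq's copy of dm6 (1 window chosen for printing is not reported here). Coordinates are 1-based. A replicate's value is that of its strongest region overlapping by 1 bp or more. Fisher's exact tests were two-sided with Benjamini-Hochberg adjustment within 7 classes, 6 arms and 4 position features at 0.05. The exact test was also run on simulated independent counts at a threshold of 0.05 over 7. That run covers neither the adjustment used nor dependence between neighbouring peaks. Intervals are 95% Clopper-Pearson, cover counting error only, and depth is unknown. The replicates are separate biosamples per the labels.

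Named were the genes of the 40 strongest regions (a selection is printed), genes with 3 or more regions, up to 5 per list by signal, the regions at the limit, the widest, the farthest and those missing from a replicate. Added after values were seen were further genes of lists, CG9663, CG32772, norpA, Trl, kay and Su(Tpl). Regions, the 45 gene lists and the 24 motifs were chosen with earlier results of these data known. Of the list names 15 matched through older symbols and 11 were unmatched. Tests ran in scipy 1.17.1 under Python 3.11.15, tables in pandas 2.3.3 with numpy 2.4.6, plots in matplotlib 3.10.9.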

Additional observations from a re-analysis of the deposited data

How the results depend on the processing

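Each of 10 results was recomputed under 11 alternatives. They were 200 or 400 regions, either replicate alone, close neighbours or tai left out, promoter distances of 250 or 1000 bp, TSSs of all genes, 1 TSS per gene, and peaks missing from a replicate left out. The last setting, and all settings for divergent pairs, first introns and chromosome 4, were added after seeing the data. Of 110 values 98 kept their direction and call, or for counts and width stayed close.

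The intergenic difference of -7.04 points no longer passed at a promoter distance of 250 bp (-6.06) or with TSSs of all genes (-5.5), and ran from -7.56 to -2.28 over the replicates alone. The difference beyond 10 kb of -6.65 points no longer passed with 400 regions (-3.5) and ran from -6.01 to -4.21 over the replicates alone, passing in replicate 1. The intronic difference of -7.08 points passed with 400 regions (-6.42) and at 1000 bp (-7.78). The first-intron difference of 13.6 points no longer passed with 400 regions (6.14) and ran from 8.29 to 14.7 over the replicates alone. The X difference of 2.53 points was not called and ran from -0.13 to 4.45. The width difference of -164 bp ran from -170 to 0 bp, with 0 in replicate 3 alone. The gene count of 217 was 139 with 200 regions. Fewer regions give fewer genes by construction, and for the others the cause was not tested. The promoter difference ran from 11.3 to 14.3 points and passed in all 11. Which class was most frequent among the 300 did depend on the rule. At a promoter distance of 250 bp introns held 43.7% and promoters 34.7%. With 1 TSS per gene introns held 48.3% and promoters 34.3%. No paired analysis was possible because there is only 1 group.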

Other observations

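Among 14737 distinct 8-letter words (a word and its reverse counted once) within 50 bp of the 300 summits, CTATTTAA (reverse TTAAATAG) was most in excess of the lower-ranked regions of the pooled list, by the difference from the expected count over the square root of that count plus 1. It was in 15 windows (5%, 95% Clopper-Pearson interval 2.83 to 8.11), against 0.926% (0.574 to 1.41) of the other IDR arm peaks and 1.1% of the lower-ranked regions. The 15 were 8 promoter and 7 intronic regions, at CG32486, Chro, CG4496, Raf, PAN3, Fhos, Pgant9, KCNQ, mys, E23, chn, gro, CG13101, aPKC and Eip75B. The word was picked for its excess out of all words, so its share was not tested, and overlap with known motifs was not examined.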
